A study of Homo sapiens with 15 samples.

Results

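The MYC, MAX and MXD network was followed here in breast cancer cells in which RBM47, an RNA-binding protein, was switched on with doxycycline. It comprised 10 genes, MYC, MAX, MXI1, MXD1, MXD3, MXD4, MNT, MLX, MLXIP and MGA, taken by name from the 23368 genes in the count table. All 10 were measured in all 15 libraries, and all 10 passed the filter on low values, which 12644 genes in all passed.

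MYC is a transcription factor that binds DNA as a pair with MAX and raises the expression of genes for ribosome production, nucleotide synthesis and growth. The proteins of MXI1, MXD1, MXD3, MXD4 and MNT also pair with MAX, occupy the same DNA motif, the E-box, and recruit corepressors, so that they oppose MYC at shared targets. MLX pairs with some of the MXD proteins, with MNT and with MLXIP, a glucose-sensing factor. MGA pairs with MAX within a Polycomb-type repressor complex. In breast cancer, MYC is among the most often amplified oncogenes, and MXD genes are typically switched on when cells stop dividing and differentiate.

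The cells were 3 single-cell-derived clones, each with a doxycycline-inducible RBM47 transgene in a retroviral vector, and their poly(A) RNA was sequenced. The WT6 and WT10 clones carried wild type RBM47, and the MUT3 clone carried the patient-derived frameshift mutant RBM47-I281fs. Each clone was sequenced without doxycycline and at 1, 2.5, 5 and 25 ng/ml, with 1 library per clone and dose. The labels name MDA231, a triple negative breast cancer line, for all 3 clones, whereas the study's methods derive WT6 from the brain metastatic line CN34-BrM2 and WT10 and MUT3 from the brain metastatic MDA231 derivative. By the methods, WT6 and WT10 thus differ in clone and parental line, and WT10 and MUT3 in clone and transgene, and within each of these comparisons the named differences cannot be told apart.

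Each library held 14955172 to 44771871 reads assigned to genes, with a median of 18152381. VIM, CD44, KRT8 and KRT18, looked up to check the labelled breast cancer line, were high, with at least 7100 normalized counts in every library. The estrogen and progesterone receptor genes ESR1 and PGR stayed at or below 23.8 normalized counts, the blood cell markers PTPRC and CD3E at or below 6.18, and the endothelial markers PECAM1 and CDH5 at or below 9.19. A normalized count is a read count divided by the library's DESeq size factor. The floor of 3 reads corresponded to 1.19 to 4.09 normalized counts.

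The RNA of the transgene was induced in all clones. RBM47 rose in WT6 from 258 normalized counts without doxycycline to 3136.5, 8094, 3966 and 10425 at 1, 2.5, 5 and 25 ng/ml. In WT10 it rose from 168 to 827, 2822.5, 8134 and 19877. In MUT3 it stood at 73.8, 92.1, 336, 949 and 22084, which counts reads of the mutant transcript as well. These are RNA values. The study detected no mutant protein in uncloned cells of the MDA231 derivative given doxycycline, and took the mutant to be unstable and inactive. RBM47 was lower at 5 than at 2.5 ng/ml in WT6, so that the order of the doses was not the order of RBM47 there. Whether these 2 libraries carry the right dose cannot be settled from the files, and statements on the order of doses in WT6 take the labels as given.

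A dose slope, fitted for each clone with limma over all genes, gives the change in log2(normalized count + 1) for each unit of log2(dose + 1). The 3 clones shared 1 estimate of the spread about their lines, which with no replicates is the spread between libraries of different dose and may be technical. A slope was called where its Benjamini-Hochberg adjusted p over all genes tested was under 0.05. In WT6, 7 of the 10 network genes were called, 5 rising and 2 falling, where 57.5% of all genes tested were called. In WT10, 2 of the 10 were called, both rising, where 20.0% of all genes were called. In MUT3, 0 of the 10 were called by limma, where 0% of all genes were called, and 0 of the 10 had an unadjusted p under 0.05, as 295 of all genes had. edgeR likewise called 0 of the 10 in MUT3 and 1 of all genes. The limma fit did not call the transgene itself in MUT3. RBM47 had an adjusted p of 0.0517 there, although its count at 25 ng/ml was 299 times the untreated one. With MUT3 fitted alone by limma, 1.39% of all genes were called. The lack of calls in MUT3 therefore does not show a lack of response. The share of network genes called was thus near that of all genes in each clone, and the results below concern single genes. The median slope of the 10 genes was 0.10 in WT6, against 0.01 over all genes. It was 0.01 in WT10 and 0.01 in MUT3, against 0.00 over all genes in both.

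**Figure D1:**
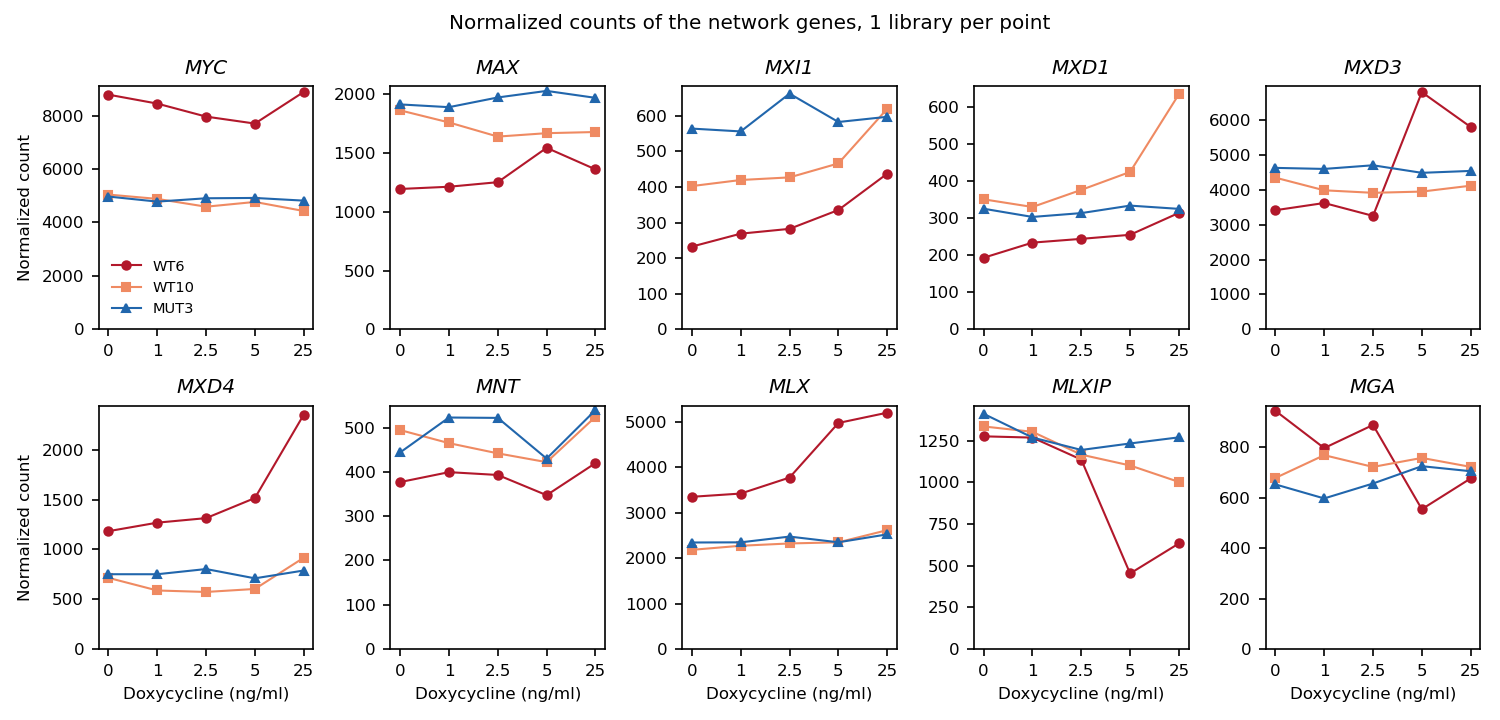
Normalized counts (linear axis from 0) of the 10 network genes against doxycycline in ng/ml (evenly spaced categories), 1 library per point, for WT6 (circles), WT10 (squares) and MUT3 (triangles). MXI1 and MXD1 climb in both wild type clones and stay level in MUT3, MYC stays near its starting level in each clone, and MXD3, MLX and MLXIP step in WT6 between 2.5 and 5 ng/ml.

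A limit touches the values of WT6. In its libraries at 5 and 25 ng/ml, the change from the untreated library followed transcript length. Genes split into 5 equal classes by length had a median log2 change of 0.60 and 0.58 at these doses in the shortest class and of -0.42 and -0.46 in the longest, while at 1 and 2.5 ng/ml in WT6 and at all doses in the other clones these medians lay between -0.08 and 0.06. The slopes were therefore also fitted after trends with transcript length and GC content had been removed from each library, and again without these 2 libraries. Without them, 0 of the 10 network genes were called in WT6 by limma, where 1.44% of all genes were called and where MLX was the only member with an unadjusted p under 0.05. In that fit the WT6 slopes were 0.08 for MXD4 (adjusted p = 0.710), 0.09 for MLX (adjusted p = 0.305), -0.09 for MLXIP (adjusted p = 0.501) and -0.06 for MGA (adjusted p = 0.745).

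MYC RNA was not called in any clone in the fit to the deposited values. In WT6, MYC stood at 8788, 8453, 7966, 7705 and 8889 normalized counts at 0, 1, 2.5, 5 and 25 ng/ml. In WT10, MYC stood at 5045, 4883, 4591, 4769 and 4429.6. In MUT3, MYC stood at 4971, 4781, 4906.5, 4918.5 and 4818. All 5 WT6 libraries lay above all 10 libraries of the other clones, which overlapped each other. The MYC slope was 0.00 in WT6 (95% confidence interval -0.05 to 0.05, adjusted p = 0.951), -0.04 in WT10 (-0.09 to 0.01, adjusted p = 0.275) and -0.01 in MUT3 (-0.05 to 0.04, adjusted p = 1). At 25 ng/ml the MYC count was 1.01 times the untreated one in WT6, with a 95% counting interval of 0.98 to 1.04, 0.878 times in WT10 (0.842 to 0.916) and 0.969 times in MUT3 (0.929 to 1.01). Such an interval covers counting error only and not the spread between cultures. After removal of length and GC trends, the MYC slope in WT6 was 0.04 (0.01 to 0.07) and passed with an adjusted p of 0.046, where 58.5% of all genes were called. Its slopes in WT6 and WT10 did not differ past the threshold in either fit (difference 0.04, adjusted p = 0.406, and 0.07, adjusted p = 0.0579).

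MAX, the shared dimer partner, was called in no clone. MAX stood at 1195, 1214, 1252, 1545 and 1361.5 normalized counts in WT6, at 1864, 1761, 1641, 1669.7 and 1679.6 in WT10, and at 1915, 1891, 1974, 2029.7 and 1970.5 in MUT3. The WT6 libraries lay below those of both other clones at every dose. The MAX slope was 0.05 in WT6 (-0.01 to 0.11, adjusted p = 0.116), -0.03 in WT10 and 0.01 in MUT3. MAX shares 822 exonic bases with FNTB and 623 with CHURC1-FNTB on the opposite strand. FNTB lay between 3.74 and 24.9 normalized counts, and the part of these genes in the MAX count was not tested.

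Among the repressive partners of MAX, MXI1 and MXD1 rose with the dose in both wild type clones. MXI1 (hg19, chromosome 10, 111967363 to 112047123, plus strand) encodes the MAX interactor also known as MXD2. It is among the genes that the study itself selected as rising on these libraries, so that its slopes in WT6 and WT10 are no independent evidence of its direction. The selection also asked for no significant correlation with the mutant in MUT3. The MUT3 slope of MXI1 and its difference from WT10 are therefore not independent of the selection either. In WT6, MXI1 stood at 232, 269, 282, 335 and 437 normalized counts from 0 to 25 ng/ml, and each library was above the one at the dose before. In WT10, MXI1 stood at 402, 419.5, 427, 466 and 619.6, also higher at each dose. In MUT3, MXI1 stood at 564, 556, 662, 583 and 597, with no order by dose. At 25 ng/ml it reached 1.88 times its untreated count in WT6 (counting interval 1.58 to 2.24), 1.54 times in WT10 (1.35 to 1.76) and 1.06 times in MUT3 (0.934 to 1.2). The MXI1 slope was 0.19 in WT6 (0.13 to 0.26, adjusted p = 0.000158) and 0.14 in WT10 (0.08 to 0.20, adjusted p = 0.00458), against 0.02 in MUT3 (-0.04 to 0.08, adjusted p = 1). The WT10 slope exceeded the MUT3 slope by 0.12 (0.03 to 0.21), which did not pass the threshold (adjusted p = 0.093). A rise in WT10 and none called in MUT3 was therefore not shown to differ for MXI1.

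MXD1 (chromosome 2, 70124820 to 70170077, plus strand) encodes the founding member of the MXD repressors. MXD1 stood at 193, 234, 244, 255 and 314 normalized counts in WT6, each higher than at the dose before. In WT10, MXD1 stood at 351, 329.8, 376, 424 and 634, so that the rise began after 1 ng/ml and was steepest between 5 and 25 ng/ml. In MUT3, MXD1 stayed between 303 and 334. The MXD1 slope was 0.14 in WT6 (0.06 to 0.21, adjusted p = 0.00345) and 0.20 in WT10 (0.14 to 0.27, adjusted p = 0.000475), against 0.01 in MUT3 (-0.06 to 0.08). MXD1 was the only network gene whose WT10 slope differed from its MUT3 slope (difference 0.19, 0.10 to 0.29, adjusted p = 0.023), 1 of 10 where 5.62% of all genes were called. Removing length and GC trends gave a difference of 0.21 (adjusted p = 0.00905), again the only 1 among the 10, where 18.6% of all genes were called. The call was lost when the WT10 library at 25 ng/ml (difference 0.11, adjusted p = 0.464), the WT10 library at 1 ng/ml (0.18, adjusted p = 0.0579), the MUT3 library at 0 ng/ml (0.18, adjusted p = 0.113) or the MUT3 library at 25 ng/ml (0.19, adjusted p = 0.475) was left out. MXD1 shares 237 exonic bases with SNRNP27 on the same strand, whose count in WT10 lay between 546 and 581 normalized counts. In WT6, SNRNP27 stood at 576, 611, 619.8, 783 and 628, and its part in the MXD1 count was not tested.

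The calls of MXI1 and MXD1 in WT10 rested on its library at 25 ng/ml. Without the 25 ng/ml libraries, the slope of MXI1 was 0.08 (adjusted p = 0.457) and that of MXD1 0.12 (adjusted p = 0.264), where 0.134% of all genes were called in WT10, and the difference of MXD1 from MUT3 was 0.10 (adjusted p = 0.883). Both stayed called in both wild type clones with length and GC trends removed, at 0.23 and 0.13 for MXI1 and at 0.23 and 0.22 for MXD1 in WT6 and WT10. Without WT6 at 5 and 25 ng/ml, the WT6 slopes were 0.16 for MXI1 (adjusted p = 0.436) and 0.19 for MXD1 (adjusted p = 0.380), from 3 libraries. Without the WT6 library at 25 ng/ml alone, the WT6 slope of MXD1 was 0.15 (adjusted p = 0.0911), while MXI1 kept its call.

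**Figure D2:**
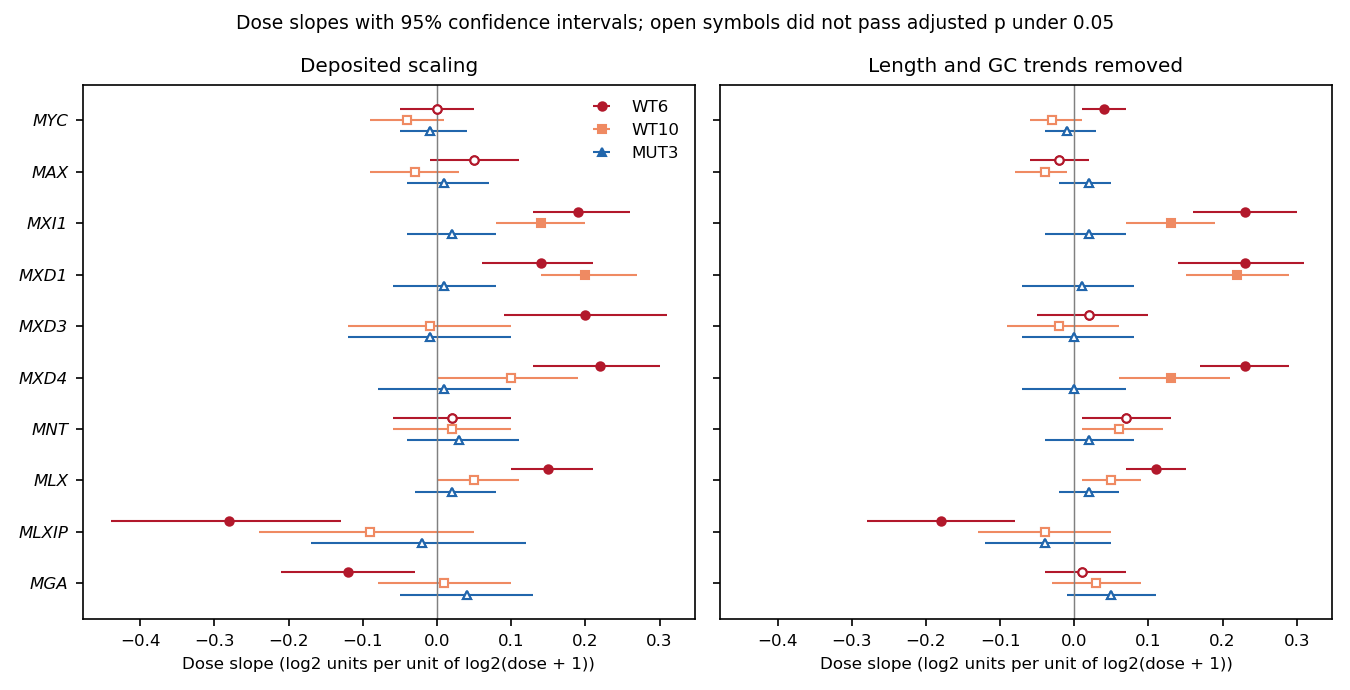
Dose slopes (log2 units per unit of log2(dose + 1)) of the 10 genes in WT6 (circles), WT10 (squares) and MUT3 (triangles), with 95% confidence intervals, from the deposited values (left) and with length and GC trends removed (right). Filled symbols passed adjusted p under 0.05: MXI1 and MXD1 are filled in both wild type clones in both panels, MXD3 and MGA in WT6 are filled on the left alone, and every MUT3 symbol is open.

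MXD4 (chromosome 4, 2249159 to 2263836, minus strand), another MXD repressor, was called in WT6. It stood at 1184, 1269, 1315, 1516 and 2353 normalized counts in WT6, each higher than at the dose before, and at 25 ng/ml it was 1.99 times the untreated count (1.84 to 2.14). In WT10, MXD4 stood at 715 without doxycycline, at 588, 573 and 604 at 1, 2.5 and 5 ng/ml, and at 917 at 25 ng/ml, so that only the highest dose lay above the untreated count. In MUT3, MXD4 lay between 710.3 and 804. The MXD4 slope was 0.22 in WT6 (0.13 to 0.30, adjusted p = 0.000385), 0.10 in WT10 (0.00 to 0.19, adjusted p = 0.135) and 0.01 in MUT3. Without the WT6 library at 25 ng/ml, the WT6 slope was 0.13 and was not called (adjusted p = 0.158). Under removal of the length and GC trends, the WT10 slope was 0.13 and passed (adjusted p = 0.00657), where 35.6% of all genes were called. The slopes of MXD4 in WT6 and WT10 did not differ past the threshold (difference 0.12, adjusted p = 0.155).

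MNT, the repressor found in most cell types irrespective of growth, was called in no clone. MNT stood at 377, 399, 393, 347 and 419.8 normalized counts in WT6, at 494, 465, 442, 422 and 524 in WT10, and at 444, 523, 522, 430.0 and 539.5 in MUT3. In all 3 clones the count at 5 ng/ml was the lowest and that at 25 ng/ml the highest of the 5. Its slopes were 0.02, 0.02 and 0.03, with intervals that all lay between -0.06 and 0.11. MNT shares 1065 exonic bases with a long noncoding RNA gene on the opposite strand, whose part in the MNT count was not tested.

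The MXD3 count cannot be read as MXD3 alone. MXD3 (chromosome 5, 176728462 to 176739758, minus strand) overlaps exons of PRELID1, a mitochondrial lipid transfer gene on the opposite strand, over 1148 bases and exons of RAB24 on the same strand over 926 bases, and reads were counted with HTSeq's default settings, which include a strand mode, while the sources used here do not say whether the libraries kept strand. MXD3 stood at 3420.4, 3628, 3258, 6812 and 5812 normalized counts in WT6, at 3920.5 to 4356.5 in WT10 and at 4495 to 4712 in MUT3. PRELID1 stood at 5349, 5301, 5198, 9013 and 8510.4 in WT6, so that both counts stepped up at the same doses. The ratio of MXD3 to PRELID1 stayed between 0.627 and 0.756 in all 15 libraries. The MXD3 slope in WT6 was 0.20 (0.09 to 0.31, adjusted p = 0.00478), and that of PRELID1 was 0.18 (adjusted p = 0.00253). Once length and GC trends were removed, the MXD3 slope was 0.02 (adjusted p = 0.587), and without WT6 at 5 and 25 ng/ml it was -0.03 (adjusted p = 0.803). How many of the reads came from MXD3 was not tested.

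**Figure D3:**
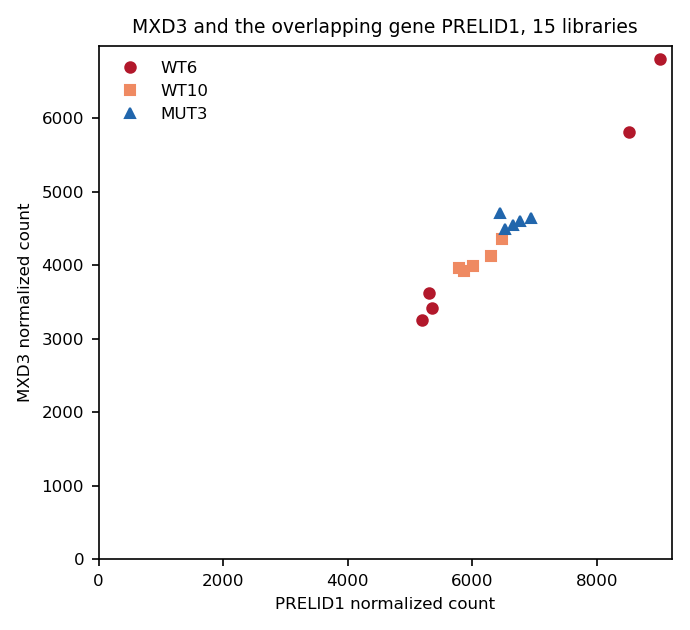
Normalized count of MXD3 against that of the overlapping gene PRELID1 in the 15 libraries, by clone, on linear axes from 0. The points lie close to a line through the origin, with ratios between 0.627 and 0.756, and the 2 WT6 libraries at 5 and 25 ng/ml lie at the upper end of both axes.

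In the MLX branch, MLX and MLXIP moved in opposite directions in WT6. MLX (chromosome 17, 40719090 to 40725257, plus strand) stood at 3350.2, 3422, 3773.5, 4974 and 5201 normalized counts in WT6, each higher than at the dose before. MLX stood at 2183, 2273, 2324, 2349 and 2616 in WT10, and between 2345 and 2524 in MUT3. The MLX slope was 0.15 in WT6 (0.10 to 0.21, adjusted p = 0.000229) and 0.11 with length and GC trends removed (adjusted p = 9.92e-05). In WT10 it was 0.05 (0.00 to 0.11, adjusted p = 0.165). MLX shares 775 exonic bases with PSMC3IP on the opposite strand, whose WT6 slope was 0.17 (adjusted p = 0.00361), and the part of PSMC3IP in the MLX count was not tested.

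MLXIP (chromosome 12, 122516628 to 122631894, plus strand) encodes the glucose-sensing partner of MLX, known as MondoA, and overlapped no other gene. In WT6, MLXIP stood at 1277, 1269, 1137, 454 and 634 normalized counts, with the drop between 2.5 and 5 ng/ml. In WT10, MLXIP stood at 1336, 1304, 1167, 1102 and 1003, lower at each dose. In MUT3, MLXIP stood at 1412, 1269.7, 1195, 1234 and 1271. Its WT6 count at 5 ng/ml was 0.355 times the untreated one (0.314 to 0.402), the largest change of any network gene at any dose. The MLXIP slope was -0.28 in WT6 (-0.44 to -0.13, adjusted p = 0.00409), -0.09 in WT10 (-0.24 to 0.05, adjusted p = 0.367) and -0.02 in MUT3. At 8427 bases its transcript is longer than 92.7% of the transcripts tested, and with length and GC trends removed the WT6 slope was -0.18 and stayed called (adjusted p = 0.00377). In the fit without WT6 at 5 and 25 ng/ml, where 38.9% of all genes were called in WT10, the WT10 slope of MLXIP was -0.09 and passed (adjusted p = 0.0025).

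MGA (chromosome 15, 41913332 to 42065279, plus strand) encodes the largest protein of the network. It stood at 945, 797, 888, 555 and 676 normalized counts in WT6, at 678, 769, 722, 758 and 722 in WT10, and at 653, 597, 656, 725 and 705 in MUT3. The MGA slope was -0.12 in WT6 (-0.21 to -0.03, adjusted p = 0.0304), 0.01 in WT10 and 0.04 in MUT3. At 12193 bases its transcript is longer than 98.1% of those tested, and with length and GC trends removed its WT6 slope was 0.01 (adjusted p = 0.707). The call was also lost without the untreated WT6 library (slope -0.09, adjusted p = 0.212).

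The slopes of WT6 and WT10 differed for 0 of the 10 genes by limma and by edgeR, where 14.4% of all genes were called. MXD3 and MLX had an unadjusted p under 0.05 there by limma, with differences of 0.21 (adjusted p = 0.0642) and 0.10 (adjusted p = 0.0744). DESeq2 on the recovered reads called 1, MXD3, where 19.6% of all genes were called.

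The clones also differed in their starting levels. Of the fitted untreated levels, 6 of 10 differed between WT6 and WT10, near the 59.6% called among all genes. On the log2 scale, MYC was higher in WT6 by 0.74 (0.56 to 0.92), MXD4 by 0.90 (0.57 to 1.23) and MLX by 0.59 (0.39 to 0.80). MAX differed by -0.56 (-0.78 to -0.35), MXI1 by -0.72 (-0.96 to -0.47) and MXD1 by -0.61 (-0.87 to -0.35), WT6 being the lower. These 6 had adjusted p from 2.44e-06 to 0.000531. Between WT10 and MUT3, derived from the same parental line, 1 of 10 differed, where 28.2% of all genes were called. This was MXI1, lower in WT10 by 0.60 (difference -0.60, -0.82 to -0.38, adjusted p = 0.000652). MUT3 thus had more MXI1 without doxycycline than WT10 had at up to 5 ng/ml, and its 5 libraries lay between 556 and 662 normalized counts.

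**Figure D4:**
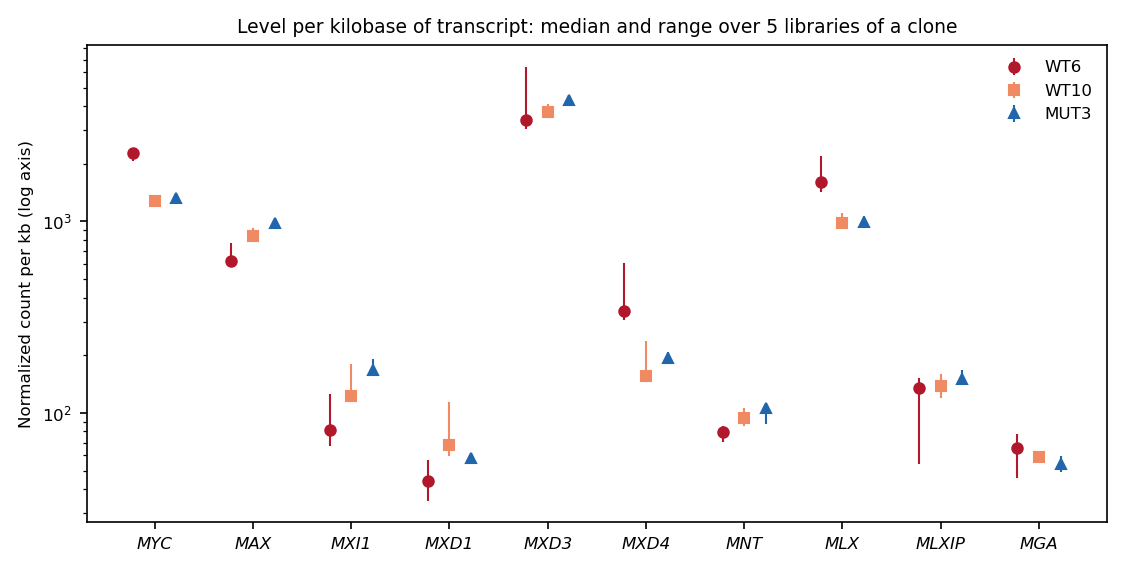
Level of each gene per kilobase of transcript (normalized count per kb, log axis) in WT6 (circles), WT10 (squares) and MUT3 (triangles); points are medians and bars the lowest to highest of the 5 libraries of a clone, which differ in dose. The median of MYC lies above those of MLX and MAX in every clone, with ranges of MYC and MLX that overlap in WT6, and MXI1, MNT, MLXIP, MXD1 and MGA lie under 200 normalized counts per kb in every library.

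Levels can be compared between genes only per length of transcript. In WT10 the median normalized count per kb over the 5 doses was 1282 for MYC, 985 for MLX, 836 for MAX, 156 for MXD4, 138 for MLXIP, 123 for MXI1, 94.4 for MNT, 67.8 for MXD1 and 59.2 for MGA. The ranges over the 5 libraries overlapped between the neighbours MLX and MAX, MXD4 and MLXIP, MLXIP and MXI1, MNT and MXD1, and MXD1 and MGA, and were apart between MYC and MLX, MAX and MXD4, and MXI1 and MNT. MXD3 stood above them at 3742, a value that includes the uncertainty from PRELID1. In MUT3 the order was the same down to MXD4, with 1319 for MYC, 996 for MLX and 980 for MAX, and MXI1 at 168 stood above MLXIP at 151. In WT6, MYC was at 2272, MLX at 1599, MAX at 623 and MXD4 at 340. The range of MLX overlapped that of MYC (at 5 ng/ml MLX was the higher). MXD1 had the lowest median of the 10 in WT6, at 43.9, with a range that overlapped that of MGA.

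Set against MYC per kb, MXI1 and MXD1 were higher at 25 ng/ml than without doxycycline in both wild type clones. The ratio of MXI1 to MYC per kb was 0.0283, 0.0341, 0.038, 0.0466 and 0.0527 in WT6 from 0 to 25 ng/ml, and 0.0855, 0.0921, 0.0997, 0.105 and 0.15 in WT10. In MUT3 it was 0.122, 0.125, 0.145, 0.127 and 0.133. The ratio of MXD1 to MYC went from 0.0147 to 0.0237 in WT6 and from 0.0466 to 0.096 in WT10, and lay between 0.0425 and 0.0455 in MUT3. MYC stayed the more abundant RNA in all 15 libraries, by these ratios.

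Other genes of the family did not pass the filter and were not tested. MYCN had at most 1 read in any library. MYCL1 lay between 4.12 and 15.3 normalized counts, and MLXIPL, the glucose-responsive relative of MLXIP, between 0 and 68.5, with means of 35.2 in WT6, 3.98 in WT10 and 0.42 in MUT3.

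The network proteins share the E-box CACGTG, which reads the same on both strands. RefSeq promoter windows of 300 bases, from 250 before to 50 after a gene's start (GRCh38.p14), were searched for 9 of the members, with 14 windows. MYC was left out of this search. The set of all windows was not cut in the same way, so that the shares below come from unlike sets, and their difference was not tested. The letters CACGTG occurred in 3 of these 14 windows (21.4%), against 2548 of all 35116 windows (7.26%), and in 3 genes. These windows are shown because they are where the network's own motif stands beside its members, with the E-box in capitals and 12 bases on either side, on the strand of the gene.
MXD4: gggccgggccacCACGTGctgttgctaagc
MNT: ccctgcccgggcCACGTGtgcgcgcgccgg
MLX: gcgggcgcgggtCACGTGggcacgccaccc
The first lies at chr4:2262330-2262359 on the minus strand, with the E-box beginning 238 bases before the start of MXD4. The second lies at chr17:2401236-2401265 on the minus strand, 193 bases before the start of MNT, and the third at chr17:42567038-42567067 on the plus strand, 50 bases before that of MLX. Of these 3 genes, MXD4 and MLX were called as rising in WT6 and MNT was called in no clone. MXI1 and MXD1, which rose in both wild type clones, had no such letters in their windows. A match in this window is a description of sequence and not of binding.

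Among the genes that MYC is known to activate, falls outnumbered rises in both wild type clones. Of 46 tested genes on this list, mostly for ribosome assembly and nucleotide and polyamine synthesis, 8 rose and 17 fell in WT6, where 29.2% of all genes rose and 28.3% fell. In WT10, 1 rose and 14 fell, where 10.2% of all genes rose and 9.83% fell. In MUT3, 0 of the 91 tested genes of all lists here were called by limma, edgeR or DESeq2 over all clones, and 1 had an unadjusted p under 0.05. With MUT3 fitted alone by limma, 1 of 4 tested genes that MYC is known to repress was called as rising, where 1.39% of all genes were called. The median slope of the MYC-activated list was -0.02 in WT6, -0.06 in WT10 and -0.01 in MUT3, against 0.01, 0.00 and 0.00 over all genes. With length and GC trends removed, 28 fell and 1 rose in WT6 and 27 fell and 1 rose in WT10, where 29.3% and 19.0% of all genes fell. In that fit 17 of the 46 had a lower slope in WT10 than in MUT3, where 10.7% of all genes did. Before the trends were removed, 1 had a lower and 1 a higher slope in WT10 than in MUT3. Without the WT10 library at 25 ng/ml, 0 of the 46 were called as falling in WT10, where 0.0475% of all genes were called. The loss of calls was thus shared by nearly all genes, and that fit does not set the list apart. In WT6, 0 of the 46 were called as falling without its libraries at 5 and 25 ng/ml, where 1.44% of all genes were called. The calls of the other lists below were lost in the same way, with 0 called in WT10 without its library at 25 ng/ml and 0 in WT6 without those 2 libraries.

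The genes of this list with the largest falls in both wild type clones were UTP20, CAD, ODC1, PPRC1 and NCL. ODC1, the rate-limiting enzyme of polyamine synthesis, went from 18211 to 10182 normalized counts in WT6 between 0 and 25 ng/ml, from 10508 to 4827 in WT10 and from 6679 to 6341 in MUT3. Its slopes were -0.17 in WT6 and -0.24 in WT10, and the WT10 slope differed from that in MUT3 by -0.23 (adjusted p = 0.0166). NCL, which encodes nucleolin, went from 42661 to 21972 in WT6 and from 23936 to 16591 in WT10, and stayed between 28857 and 30181 in MUT3. CAD, for the first steps of pyrimidine synthesis, had slopes of -0.31 and -0.13, UTP20, for a ribosome assembly factor, -0.34 and -0.19, and PPRC1, a coactivator of mitochondrial genes, -0.22 and -0.15. With both trends removed these were -0.22 and -0.07, -0.22 and -0.18, and -0.15 and -0.10, all still called. TFB2M, a mitochondrial transcription factor, was the gene that rose in both (0.12 and 0.11), and with length and GC trends removed its slopes were 0.04 and 0.06 and were not called.

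Of 8 genes that MYC is known to repress, 4 were tested, and 3 of these rose in both WT6 and WT10, where 29.2% and 10.2% of all genes rose. The counts depended on the filter. With no filter, 7 were tested, and 2 rose and 2 fell in WT6, where 39.1% of all genes were called. In WT10, 3 of these 7 rose and 0 fell, where 13.2% of all genes were called. With a filter on the mean of all libraries, 4 of 6 rose and 1 fell in WT6, where 55.4% were called. CDKN1A, which encodes the cell cycle inhibitor p21, went from 4453 to 7910 normalized counts in WT6, from 2607 to 5961 in WT10 and from 1566 to 2296 in MUT3. Its slopes were 0.18, 0.27 and 0.11, and WT10 differed from MUT3 by 0.16 (adjusted p = 0.0468). GADD45A, a growth arrest gene, had slopes of 0.11 in WT6 (adjusted p = 0.0494) and 0.20 in WT10, and with length and GC trends removed -0.02 and 0.18. NDRG1, a stress-responsive gene, had slopes of 0.26 in WT6 and 0.14 in WT10. The median slope over the 4 genes was 0.14 in WT6 and 0.17 in WT10. With both trends removed the WT6 median was 0.04, 2 rose, at 0.10 for CDKN1A and 0.26 for NDRG1, and CDKN1B, another cell cycle inhibitor named after its values were seen, fell (-0.10, adjusted p = 0.00174).

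MXD proteins and MNT act through corepressors, and of 7 corepressor genes tested, 5 fell in WT6 and 3 in WT10, where 28.3% and 9.83% of all genes fell, with median slopes of -0.15 and -0.09. HDAC1, a histone deacetylase, went from 5068 to 3018 normalized counts in WT6 and from 3346 to 2263 in WT10, against 3664 to 3861 in MUT3. Its slopes were -0.15 and -0.13, and the WT10 slope differed from MUT3 by -0.15 (adjusted p = 0.0276). The scaffold genes SIN3A and SIN3B had slopes of -0.17 and -0.13 in WT6 and of -0.11 and -0.12 in WT10, and with both trends removed SIN3A had one of -0.07 in WT6. Of 10 MYC cofactor genes, 6 fell in WT6 and 2 in WT10, against the same shares of all genes, with median slopes of -0.09 and -0.06. WDR5, which holds MYC on chromatin, had slopes of -0.18 and -0.13, and RUVBL1, an ATPase of chromatin remodelers, -0.08 and -0.11.

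Of 10 partners of MGA in the Polycomb-type complex PRC1.6, 1 rose and 3 fell in each wild type clone, where 28.3% of all genes fell in WT6, a share near that of the list, and 9.83% in WT10. The median slopes were -0.03 and 0.00. The rising gene was RING1 in WT6 (0.12) and YAF2 in WT10 (0.10), both named after their values were seen, and with both trends removed neither was called, at 0.00 (adjusted p = 0.981) and 0.07 (adjusted p = 0.112). Those that fell in both were TFDP1 (-0.23 and -0.12), which pairs with E2F factors, CBX1 (-0.17 and -0.13), a heterochromatin protein, and L3MBTL2 (-0.12 and -0.10), the chromatin reader of the complex. Of 12 regulators of MYC protein turnover, 2 rose and 8 fell in WT6, where 29.2% of all genes rose and 28.3% fell. The median slope was -0.18, and -0.08 with both trends removed. Among those that rose was STUB1 (0.20, and 0.04 with both trends removed), a ubiquitin ligase, and those that fell with the largest slopes were USP36 (-0.39), a deubiquitinase, and KIAA1524 (-0.33), an inhibitor of the phosphatase that acts on MYC, all 3 named after their values were seen. In WT10, 0 of the 12 were called by limma or edgeR and 3 by DESeq2, and 5 had an unadjusted p under 0.05 in limma, with a median slope of -0.04. In the fit without length and GC trends, 1 rose and 6 fell in WT10. Of the 2 targets of MLXIP and MLX tested, TXNIP, an inhibitor of thioredoxin named here after its values were seen, fell in WT10 (slope -0.19, adjusted p = 0.00248), and its slope in WT6 was -0.07 (adjusted p = 0.118). ARRDC4 was called in no clone.

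**Figure D5:**
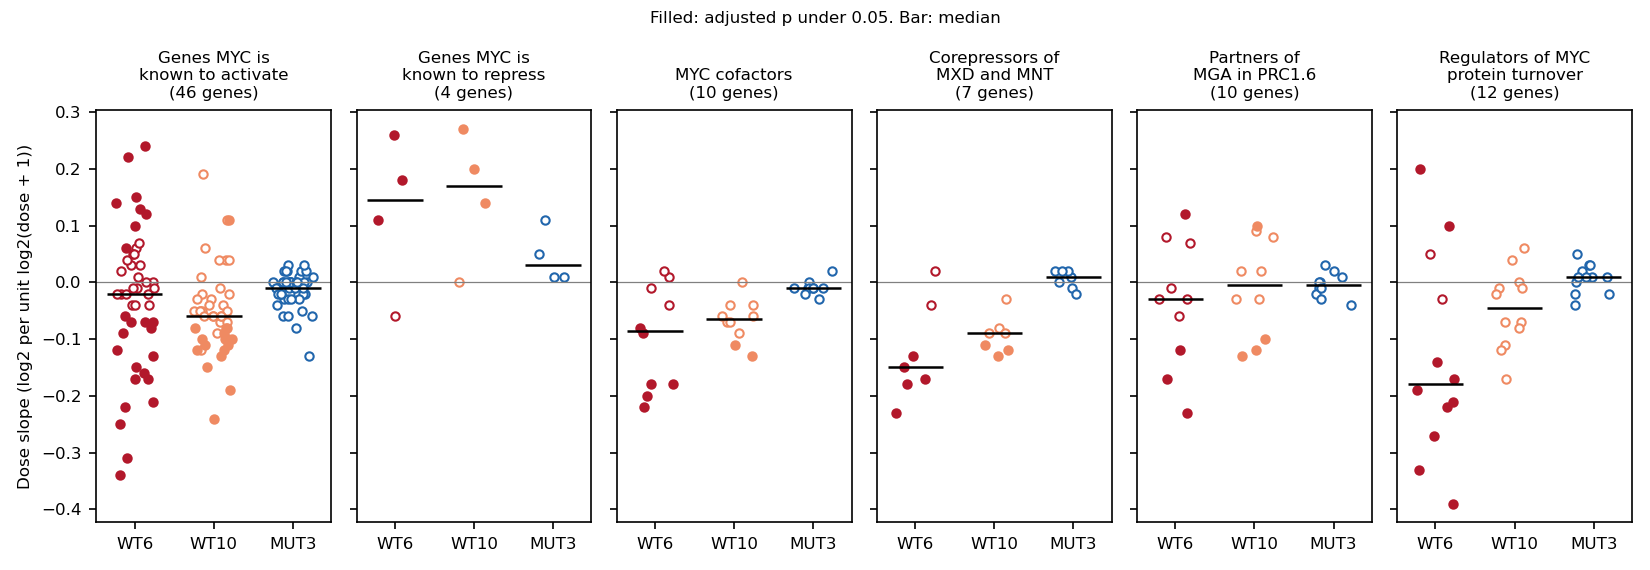
Dose slopes (log2 units per unit of log2(dose + 1)) of the tested genes of 6 lists in WT6, WT10 and MUT3, from the deposited values. Filled points passed adjusted p under 0.05 and bars are medians; the wild type medians of the MYC-activated list, the cofactors and the corepressors lie below 0, those of the MYC-repressed list above 0, and all MUT3 points are open.

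The genes whose values were most like those of MYC over the 15 libraries, by the root mean square difference of log2 values centred on each clone's mean, were MANEAL (0.033), ACTR1B (0.041), LEMD2 (0.042), UBAC2 (0.043) and WDR6 (0.043). MYC itself varied by 0.061 about its clone means, so these are genes that moved little. For MXI1, which varied by 0.227, they were HOXB9 (0.056), STAMBP (0.064), DUSP3 (0.067), TOR1A (0.068) and CDC42EP2 (0.072). These likenesses are descriptions over libraries that share clones and doses.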

How the data were processed

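Total RNA of the 15 libraries had been prepared with a poly(A)-selecting kit and sequenced as paired ends. Per the paper's methods, the authors used STAR for alignment to hg19 and HTSeq (version 0.5.4 in the submitters' processing notes) for gene counts, then divided by DESeq size factors, so that the deposited values are a normalized count signal. HTSeq ran with its default settings, which include a strand mode. The annotation, and whether the libraries kept strand, are not given in the sources used here. Reads that HTSeq assigned to no gene and its other tallies held 57.2% to 60.2% of each library's total and were left out. Reads assigned to no gene alone held 56.5% to 59.6%, and whether the strand mode bears on this was not tested. Columns without a sample numbered 0. Read numbers recovered from the smallest step of each library were whole, within 0.01 reads, for 100% of values. On these edgeR 4.0.16 called 7113 genes in WT6, 2489 in WT10 and 1 in MUT3, against 7272, 2527 and 0 in the main fit.

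The main fit used limma 3.58.1 in R 4.3.3 on log2(normalized count + 1), with weights from the trend of variance with the mean, an intercept and a slope for each clone (6 coefficients, 9 residual degrees of freedom), and genes with a mean of at least 10 normalized counts in each clone. The fold changes of low genes are understated on this scale. Transcript lengths and GC content came from GENCODE release 44 on hg19, matched to 92.3% of the genes. Trends with both were removed by splines with 4 degrees of freedom. Alternatives included edgeR, DESeq2 1.42.0, TMM scaling, other filters, pseudocounts and dose codings, and leaving out libraries. The scripts were tested on simulated data. Members and gene lists were chosen with earlier results of these data known. All members are given. From each list and direction come at most the 5 genes with the largest mean absolute slope that passed so in WT6 and WT10. Some further list genes are also named, and most of these are marked as named after their values were seen. Some results are not reported here.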

Additional observations from a re-analysis of the deposited data

Results flagged for a closer look

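A difference in dose slope between clones passed the test of the difference itself, by limma, for 1 network gene and for some of the genes named from the lists, where 5.62% of all genes differed between WT10 and MUT3 and 14.4% between WT6 and WT10. MXD1 had a higher slope in WT10 than in MUT3, by 0.19 (adjusted p = 0.023). Higher in WT10 than in MUT3 were also TFB2M, by 0.16 (adjusted p = 0.0403), and CDKN1A, by 0.16 (adjusted p = 0.0468). The WT10 slope was lower than that of MUT3 for ODC1 (difference -0.23, adjusted p = 0.0166), WDR5 (-0.12, adjusted p = 0.0382), HDAC1 (-0.15, adjusted p = 0.0276), TFDP1 (-0.13, adjusted p = 0.0366) and CBX1 (-0.12, adjusted p = 0.0466). The WT6 slope was lower than that of WT10 for CAD (difference -0.19, adjusted p = 0.039) and TFDP1 (-0.11, adjusted p = 0.0422). Without the WT10 library at 25 ng/ml, 0 of all genes differed between WT10 and MUT3 by limma, and 1628 had an unadjusted p under 0.05. With 1 library per clone and dose, no group was large enough for a search for single outlying samples.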

How the results depend on the processing

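Under 15 alternatives and 15 fits that each left out 1 library, 1936 of 2020 values of single network genes kept their side of the threshold and, where called, their direction. Another 50 lost their call, 32 gained one and 2 turned direction: MXD3 in WT6 without WT6 at 5 and 25 ng/ml (-0.03) and MGA in WT6 with length and GC trends removed (0.01). Values not called in the main fit, the larger part of the 2020, counted as kept wherever they stayed uncalled. The 50 lost and 2 turned values fall on the fewer called ones, so that 1936 does not measure how well calls held. The fit without WT6 at 5 and 25 ng/ml was chosen after seeing the data. In it, 0 network genes were called in WT6 (1.44% of all genes) and 5 in WT10 (38.9% of all genes). Between WT10 and MUT3, 2 slopes (24.2% of all genes) and 3 untreated levels (46.7% of all genes) differed. With each clone fitted alone, 4 were called in WT6 (31.2% of all genes). With any doxycycline against none, 0 slopes were called in WT6, in WT10 and between WT10 and MUT3, where 0% of all genes were called. The untreated levels called were 2 for WT6 against WT10 (24.8% of all genes) and 0 for WT10 against MUT3 (1.58%). With log2 RBM47 as the dose, 0 were called in WT6, in WT10 and between WT10 and MUT3. The shares of all genes called there were 0.0158%, 0.704% and 0%. Without 25 ng/ml, 0 were called in WT10 (0.134% of all genes) and 0 between WT10 and MUT3 (0% of all genes). DESeq2 called 1 difference between WT6 and WT10 (19.6% of all genes). Dose in ng/ml gave 2 untreated levels for WT10 against MUT3 (34.6% of all genes). With 1 library left out, counts ranged from 6 to 7 in WT6, 0 to 4 in WT10, 0 to 2 between WT10 and MUT3, 0 to 3 between WT6 and WT10, and 6 to 8 and 1 to 2 for the untreated levels. Over all genes, the shares called in these fits ranged from 36.6% to 62.4% in WT6 and from 0.0475% to 32.8% in WT10. They ranged from 0% to 17.9% between WT10 and MUT3 and from 0.467% to 29.4% between WT6 and WT10. For the untreated levels they ranged from 49.8% to 67.1% and from 16.6% to 40.8%. The lowest count of network genes in WT10 came without its library at 25 ng/ml and the highest without WT6 at 5 ng/ml. The difference of MXD1 between WT10 and MUT3 lost its call without WT10 at 1 or 25 ng/ml and without MUT3 at 0 or 25 ng/ml. Apart from the fits that use fewer libraries, the cause was not tested. Of the genes MYC activates, between 0 and 28 fell in WT6 and between 0 and 27 in WT10 over all alternatives. No paired analysis was run. The labels number no replicates, each clone and dose having 1 library, and a match of clones by their shared doses was not tried. Untreated levels were not recomputed for each clone alone, for log2 RBM47 or with trends removed.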
